A study of Mus musculus with 20 samples.

Results

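The neurotrophins Bdnf and Ntf3, their receptors Ntrk2, Ntrk3, Ngfr and Sort1, and the neurotrophin-inducible gene Vgf were followed in the prefrontal cortex of male Swiss-Webster mice exposed to social stress. The members are all non-control probes of the array whose gene name is one of these 7 symbols, which gave 14 of 39429 probes and 7 of 27384 gene names. Bdnf, Ntf3, Ngfr and Vgf had 1 probe each, Ntrk2 and Sort1 had 3 each, and Ntrk3 had 4. No member probe passed the test at any time point, where 0% to 0.0228% of all probes did. Of the 56 estimates, 55 were within 0.2 of no change on the log2 scale. Over all probes, 1.13% (acute), 0.685% (8 days), 1.49% (13 days) and 0.918% (recovery) were beyond 0.2 in size. The members are thus near the share of the whole array.

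Neurotrophins are secreted growth factors that keep neurons alive in development and tune synapses in the adult cortex. Each mature factor binds a Trk receptor tyrosine kinase, BDNF mainly TrkB (Ntrk2) and NT-3 mainly TrkC (Ntrk3), whereas the uncleaved precursors bind p75 (Ngfr) together with sortilin (Sort1). Ntrk2 and Ntrk3 also give rise to truncated receptors that lack the kinase domain and cannot signal as full-length Trk receptors do. BDNF is made in an activity-dependent manner by cortical neurons, and its loss or gain under stress has been studied widely in rodents.

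Stressed mice were put into the cage of a group of unfamiliar males, and control mice were left undisturbed. The stress and control groups lived in different, neighbouring rooms throughout, so a difference between rooms cannot be told apart from stress. All mice were 12 weeks old when they were separated from their brothers, lived alone from then on and had 22 days of habituation. The acute group had 1 encounter of 15 min. The 8 days and 13 days groups had the same first day and then 2 and later 3 encounters of 10 min per day. These 3 groups were killed the day after their last encounter, so no value was taken while stress lasted. The recovery group had 13 days of stress and 5 days of rest. Each time point had its own control group of siblings. A slice of 1 mm from the frontal pole was taken, RNA of 3 mice was pooled, and a stress pool was hybridised with the control pool of siblings on a dual-colour Agilent array. There were 3 pairs of pools per time point and 12 in all. The data used here come from 20 arrays. Pair 1 was on 1 array with stress in Cy5. Pairs 2 and 3 were on 1 array in each dye orientation, called original and dye swap. The paper describes further dye-swap arrays, which were not among the data used here. The values below are log2 ratios of stress over control, so a positive value is a higher level after stress. Because each value comes from a piece of tissue, a change in the number of cells of a type and a change in RNA per cell cannot be told apart.

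On an array, 57.8% to 69.4% of the probes were well above background in both channels, and all 14 member probes were so on all 20 arrays. Markers of neurons, excitatory cortical neurons, interneurons, astrocytes, oligodendrocytes and microglia were each well above background on every array. Among 3 genes listed as not of the brain, the liver gene Alb was so on no array, but 1 was so on every array. Being well above background thus does not by itself show that a gene is expressed in this tissue. Of the marker lists, that of red cells (Hbb-b1, Hba-a1 and Alas2) had the highest median log2 ratio, 1.34 at 13 days; its part in the values below was not tested. The background correction drew ratios towards 0 on 5 of the 20 arrays, where 38.1% to 73.3% of all probes lay within 0.01 of 0, against 4.8% to 18.7% on the other 15. These are the original arrays of pairs 2 and 3 at 8 days, of pair 3 at 13 days and of pair 3 at recovery, and the dye swap of pair 2 at recovery. With the local background subtracted instead, the share was 4.99% to 6.99% on every array. That setting, chosen after the data were seen, is given below beside each estimate it moved by more than 0.05 and each count of pairs all on 1 side that it ended.

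A probe was called where limma's adjusted p was under 0.05 and the log2 ratio over 0.5 in size. By that rule 0 of 14 member probes were called at each of the 4 time points, where the share called among all probes was 0.00254% (acute), 0% (8 days), 0.0228% (13 days) and 0% (recovery). The lowest adjusted p of a member was 0.595, at 13 days. At an unadjusted p under 0.05, the members had 2 of 14 probes after acute stress, 1 at 8 days, 3 at 13 days and 1 after recovery, against 4.94%, 2.39%, 7.18% and 3.56% of all probes at those times. The estimates ran from -0.13 to 0.14 after acute stress, from -0.082 to 0.17 at 8 days, from -0.31 to 0.16 at 13 days and from -0.12 to 0.12 after recovery. The medians over the 14 probes were -0.038, -0.015, -0.04 and -0.013, against 0.0011, -0.00091, -0.00071 and -0.0015 over all probes.

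The intervals hold the spread between pairs under the main normalization only, so larger changes may be hidden. They do not allow for the arrays on which ratios were drawn towards 0. Other settings moved some estimates outside them. With arrays centred on the median in place of loess, the probe for both Ntrk2 forms stood at 0.31 after acute stress. Its interval at that time ended at 0.29. Of 56 intervals at 95%, 1 reached beyond a log2 ratio of 0.5 in size, that of the truncated Ntrk3 probe at 13 days, which ended at -0.57. After acute stress the 14 intervals lay between -0.39 and 0.29, at 8 days between -0.30 and 0.31, and after recovery between -0.27 and 0.29.

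**Figure D1:**
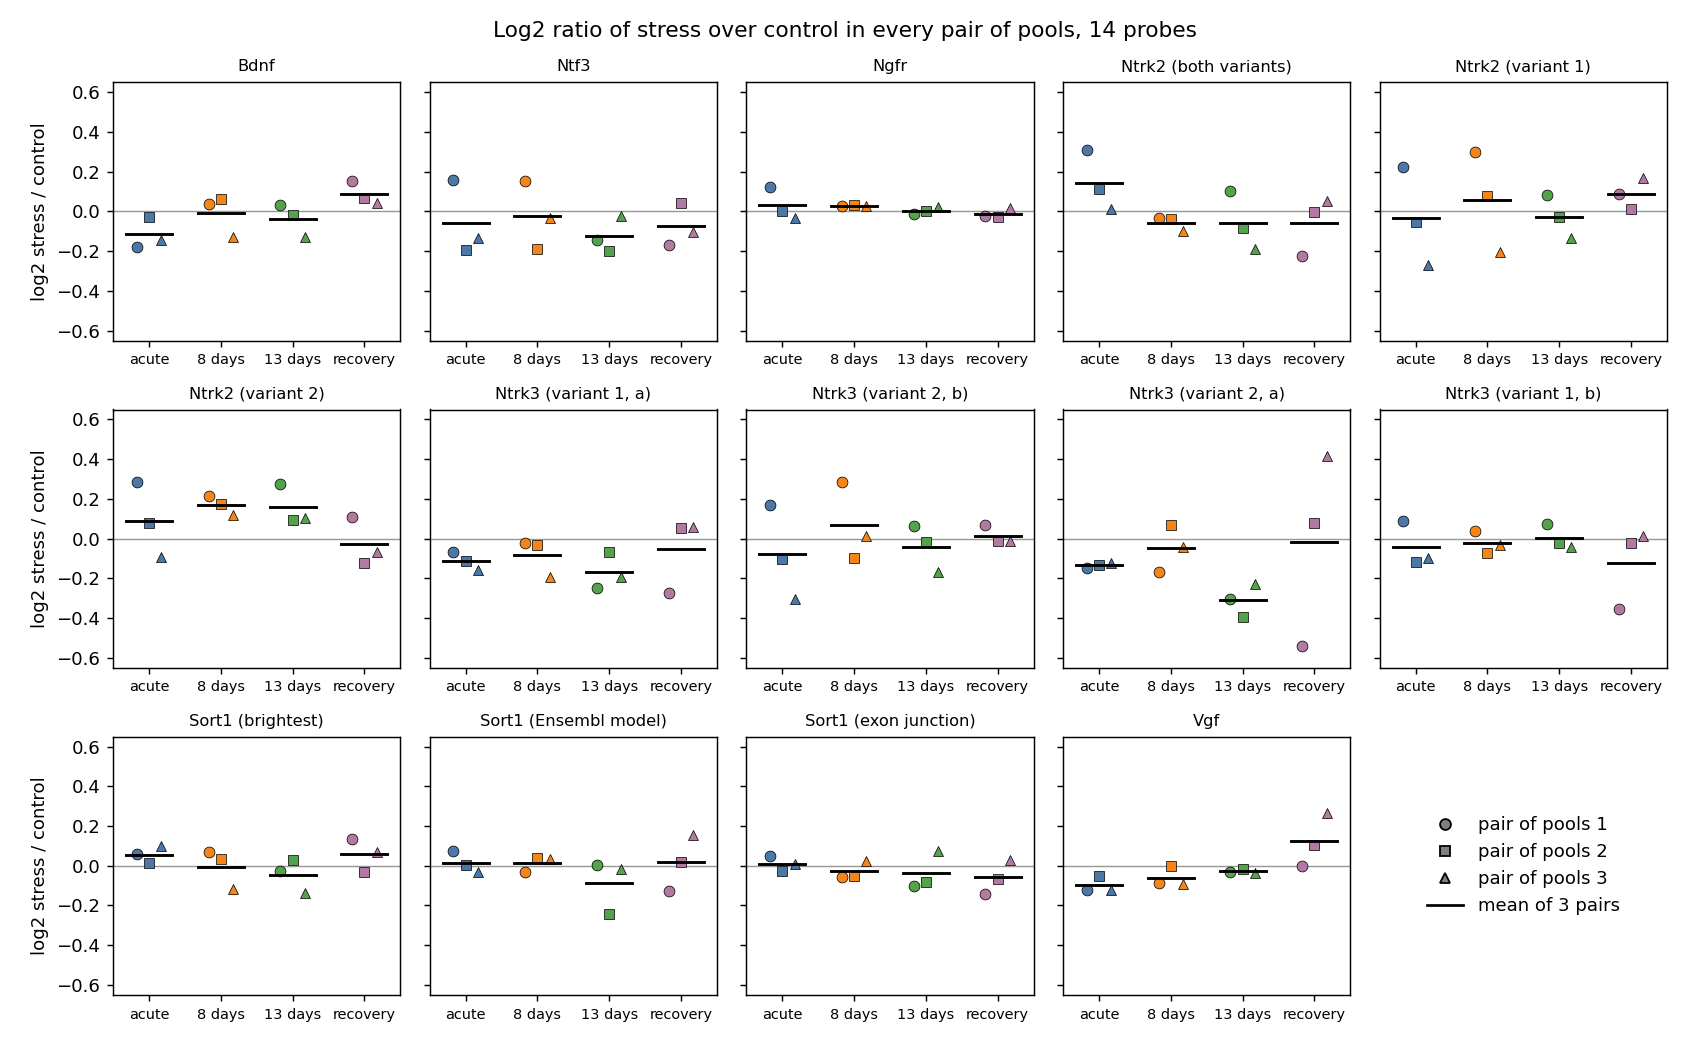
Stress over control as a log2 ratio (vertical axis) for the 14 member probes at the 4 time points (horizontal axis), with a symbol per pair of pools and a line at the mean of 3 pairs. Most probes have pairs on both sides of 0 at most time points, and the widest spread is that of the truncated Ntrk3 probe after recovery, from -0.54 to 0.41.

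**Figure D2:**
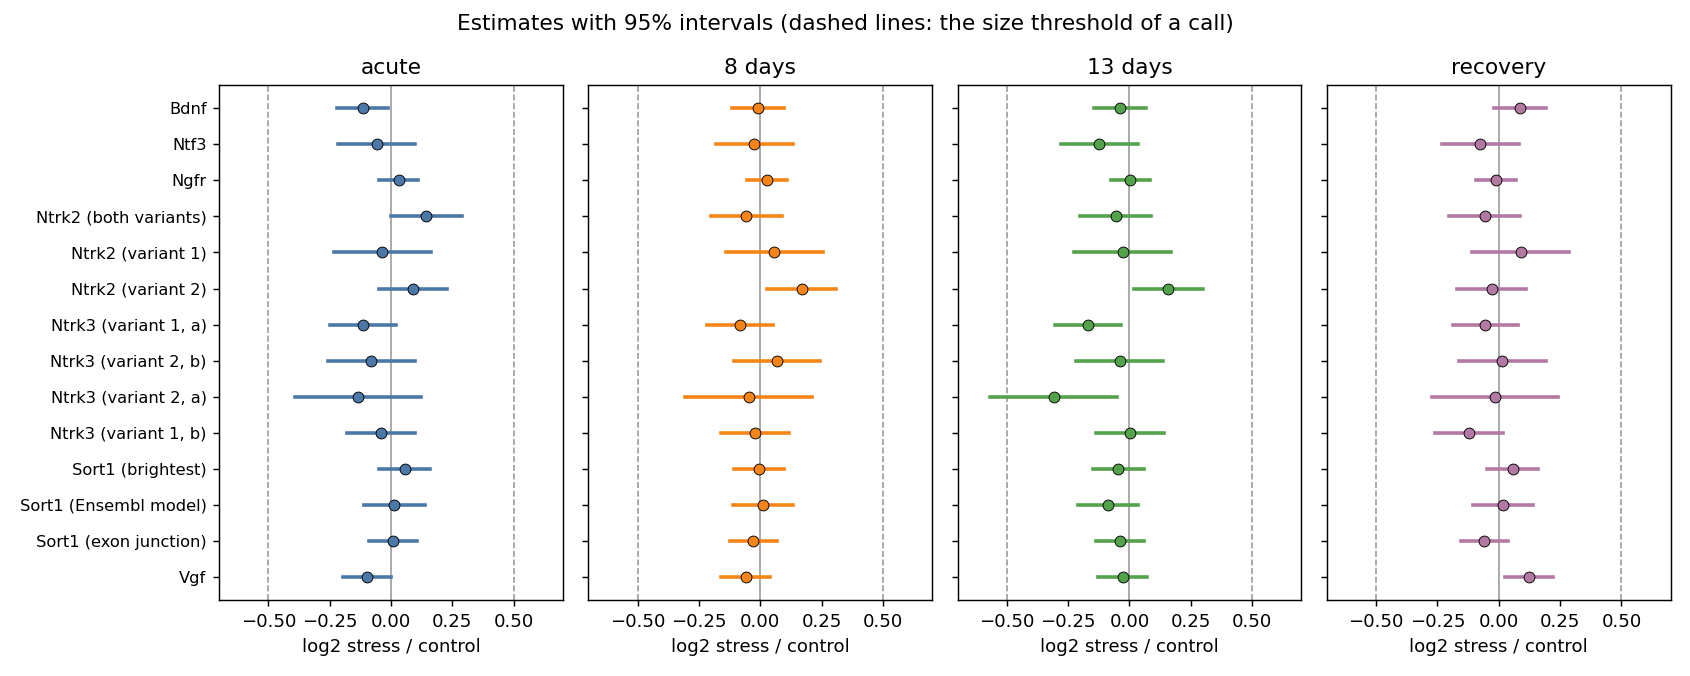
Estimated log2 ratio of stress over control (horizontal axis, point) with its 95% interval (bar) for each of 14 probes (vertical axis) in a panel per time point. Dashed lines mark the size of 0.5 that a call needs, and 1 bar, the truncated Ntrk3 probe at 13 days, crosses them.

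Bdnf encodes the neurotrophin that signals through TrkB. Its 1 probe, A_55_P2036303, lies at chr2:109566961-109567020 (mm9, plus strand), late in the transcript, from base 4062. A transcript that ended before this position would not be read, so the values need not cover all Bdnf RNA. After acute stress the log2 ratios of pairs 1, 2 and 3 were -0.18, -0.026 and -0.14, all below 0. At 8 days they were 0.038, 0.064 and -0.13, and at 13 days 0.031, -0.019 and -0.13. After recovery they were 0.15, 0.066 and 0.043, all above 0. The acute estimate of -0.12 (SE 0.049) had an unadjusted p of 0.034 and an adjusted p of 0.976 in limma, and its sign turned to 0.013 when arrays were centred on the median in place of loess. The recovery estimate was 0.087 (SE 0.049, adjusted p = 0.999), and 0.14 (SE 0.048, unadjusted p = 0.012) with the local background subtracted. Of the 8 pairs with a dye swap, 3 had opposite signs on their 2 arrays.

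As a level, Bdnf averaged 9.85 ± 0.14 on the log2 intensity scale in stressed mice after recovery and 9.76 ± 0.087 in their controls (SD of 3 pools). It averaged 9.51 ± 0.095 in acutely stressed mice and 9.63 ± 0.10 in the acute controls. The stress mean after recovery was the highest and the acute stress mean the lowest of the 8 condition means, which lay 0.34 apart. Of the 7 steps between neighbouring means, 1 was larger than the pooled SD of the neighbours, that between acute control and acute stress.

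Ntf3 encodes neurotrophin-3, the main ligand of TrkC. Its probe, A_55_P2021565 at chr6:126051431-126051490 (mm9, minus strand), gave -0.14, -0.20 and -0.024 at 13 days, the 1 time point with all 3 pairs on 1 side. The estimate there was -0.12 (SE 0.073, adjusted p = 0.797), and -0.075 with the local background subtracted, where pair 3 stood at 0.11. The pairs were at 0.16, -0.20 and -0.13 after acute stress, 0.15, -0.19 and -0.033 at 8 days, and -0.17, 0.044 and -0.10 after recovery. Pair 1 and pair 2 thus had opposite signs at 3 of 4 time points, and 9 of the 12 pairs were below 0.

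Ntrk2 encodes TrkB. Its probe A_55_P2006792 matches both transcript variants, A_51_P393454 the full-length kinase receptor (variant 1) and A_65_P04961 the truncated receptor without a kinase (variant 2). They lie at chr13:58979563-58979622, chr13:59230936-59230995 and chr13:59038046-59038105 (mm9, plus strand). Ntrk3 encodes TrkC, with A_66_P118329 and A_55_P2056533 for the full-length receptor (chr7:85337455-85337514 and chr7:85392044-85392103, minus strand) and A_55_P2006808 and A_52_P500274 for the truncated one (chr7:85447515-85447574 and chr7:85445908-85445967). In the plot of ratios by pair, full-length forms are variant 1 and truncated forms variant 2, and of the Ntrk3 probes A_66_P118329 and A_55_P2006808 are marked a and the others b. The sequences of 4 of these probes are shown because their reading frames are known stretches of the receptors. They are the TrkC kinase, the end of full-length TrkC, the tail of truncated TrkC, and a stretch that both TrkB forms share. The last starts in the membrane-spanning part and does not tell the TrkB forms apart. Capitals in the truncated Ntrk3 probe mark the stop codon at the end of its reading frame.
Ntrk3 full-length, A_55_P2056533: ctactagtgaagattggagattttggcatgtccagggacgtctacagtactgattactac
Ntrk3 full-length, A_66_P118329: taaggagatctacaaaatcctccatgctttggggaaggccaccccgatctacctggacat
Ntrk3 truncated, A_55_P2006808: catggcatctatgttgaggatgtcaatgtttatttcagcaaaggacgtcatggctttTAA
Ntrk2 both variants, A_55_P2006792: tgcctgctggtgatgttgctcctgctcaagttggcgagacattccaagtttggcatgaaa

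The truncated TrkB probe had log2 ratios of 0.22, 0.17 and 0.12 at 8 days and 0.27, 0.096 and 0.10 at 13 days, above 0 in 6 of 6 pairs. After acute stress the pairs were at 0.28, 0.077 and -0.092, and after recovery at 0.11, -0.12 and -0.068. The estimates of 0.17 (SE 0.065) at 8 days and 0.16 (SE 0.065) at 13 days had unadjusted p of 0.021 and 0.03 in limma, and adjusted p of 1 and 0.647. Each corresponds to a level in stressed mice of 1.12 times that in control mice. The 2 arrays of a pair had opposite signs in 5 of 8 pairs. At 13 days the dye swaps of pairs 2 and 3 gave 0.31 and 0.25 and the originals -0.12 and -0.044, so no pair with both orientations was above 0 on both of its arrays at that time. The 4 astrocyte markers, from cells in which truncated TrkB is known to be abundant, had a median log2 ratio of -0.039 at 8 days and -0.14 at 13 days, with 1 of 4 above 0 at each; their part in the result was not tested.

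The full-length TrkB probe, spotted 10 times on each array, had pairs on both sides of 0 at 8 and at 13 days. Its pairs were at 0.30, 0.075 and -0.20 at 8 days, 0.081, -0.03 and -0.13 at 13 days, and 0.089, 0.012 and 0.17 after recovery, the last above 0 in 3 of 3. The acute pairs spread from -0.27 to 0.22. Over its 10 spots on an array the SD of the log2 ratio was 0.013 to 0.056, median 0.023, and the 2 arrays of acute pair 3 gave -0.0027 and -0.54. The estimates were between -0.034 and 0.09, with adjusted p of 0.988 or more.

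The probe for both Ntrk2 forms was above 0 in 3 of 3 pairs after acute stress, at 0.31, 0.11 and 0.011, and below 0 in 3 of 3 at 8 days, at -0.033, -0.039 and -0.099. Its 2 arrays had opposite signs in 6 of 8 pairs. The acute estimate was 0.14 (SE 0.067, unadjusted p = 0.0497, adjusted p = 0.976), and 0.063 without pair 1 of every time point. At 8 days the estimate of -0.057 moved to 0.018 with the local background subtracted, where pair 3 stood at 0.16. As the mean over the arrays of a pair, the truncated minus the full-length TrkB ratio was 0.19, 0.13 and 0.24 at 13 days, mean 0.19 ± 0.057 (SD), and 0.06, 0.13 and 0.18 after acute stress. It was -0.083, 0.099 and 0.32 at 8 days and 0.018, -0.14 and -0.24 after recovery, which spans 0 at both times. On single arrays the difference was above 0 on 3 of 5 after acute stress, 4 of 5 at 8 days, 4 of 5 at 13 days and 1 of 5 after recovery, and pair 2 at 13 days gave -0.18 with stress in Cy5 and 0.43 with stress in Cy3. These differences are a description and were not tested.

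For TrkC, the truncated probe A_55_P2006808 had the largest estimate of any member. Its pairs stood at -0.31, -0.39 and -0.23 at 13 days, all below 0, and all 5 arrays of that time point were below 0. The estimate of -0.31 (SE 0.12) corresponds to a level in stressed mice of 0.807 times that in control mice, with an unadjusted p of 0.022 and an adjusted p of 0.623. After acute stress the pairs were close together at -0.15, -0.13 and -0.12, but the 2 arrays of pair 3 gave 0.15 and -0.40. At 8 days the pairs were at -0.17, 0.07 and -0.044, and after recovery at -0.54, 0.079 and 0.41. The recovery estimate of -0.015 (SE 0.12) is thus the mean of pairs on both sides of 0, and the SD of its 3 pairs, 0.48, was the largest of any member at any time.

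The other truncated probe, A_52_P500274, did not follow the first, with pairs at 0.065, -0.017 and -0.17 at 13 days (estimate -0.04, SE 0.082). Over the 12 pairs the ratios of the 2 truncated probes had a Pearson r of -0.14, a description over pairs that share slides and dyes. The first truncated probe had r of 0.73 with the full-length probe A_66_P118329.

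The full-length TrkC probe A_66_P118329 was below 0 in 9 of 9 pairs of the acute, 8 days and 13 days groups. Its pairs were at -0.067, -0.11 and -0.16 after acute stress, -0.024, -0.03 and -0.19 at 8 days, and -0.25, -0.069 and -0.19 at 13 days. After recovery they were at -0.27, 0.055 and 0.057. The 13-day estimate was -0.17 (SE 0.062, unadjusted p = 0.017, adjusted p = 0.595), and -0.13 with an unadjusted p of 0.06 when the local background was subtracted. That setting also moved the 8-day estimate, -0.082, to -0.012 and put pair 3 of that time at 0.056, so that 8 of the 9 pairs stayed below 0. Arrays with stress in Cy5 gave lower values of this probe on average. The original minus the swap array, divided by 2, came to -0.11 ± 0.073 (SD over 8 pairs), which is as large as the acute estimate. In the data used here pair 1 had stress in Cy5 only, so this difference is not averaged out in it at any time point. The second full-length probe, A_55_P2056533, had no time point with 3 pairs on 1 side, and its lowest estimate was -0.12 (SE 0.064, adjusted p = 0.999) after recovery, where pair 1 stood at -0.35 and pairs 2 and 3 at -0.022 and 0.011. With the local background subtracted that estimate was -0.063.

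**Figure D3:**
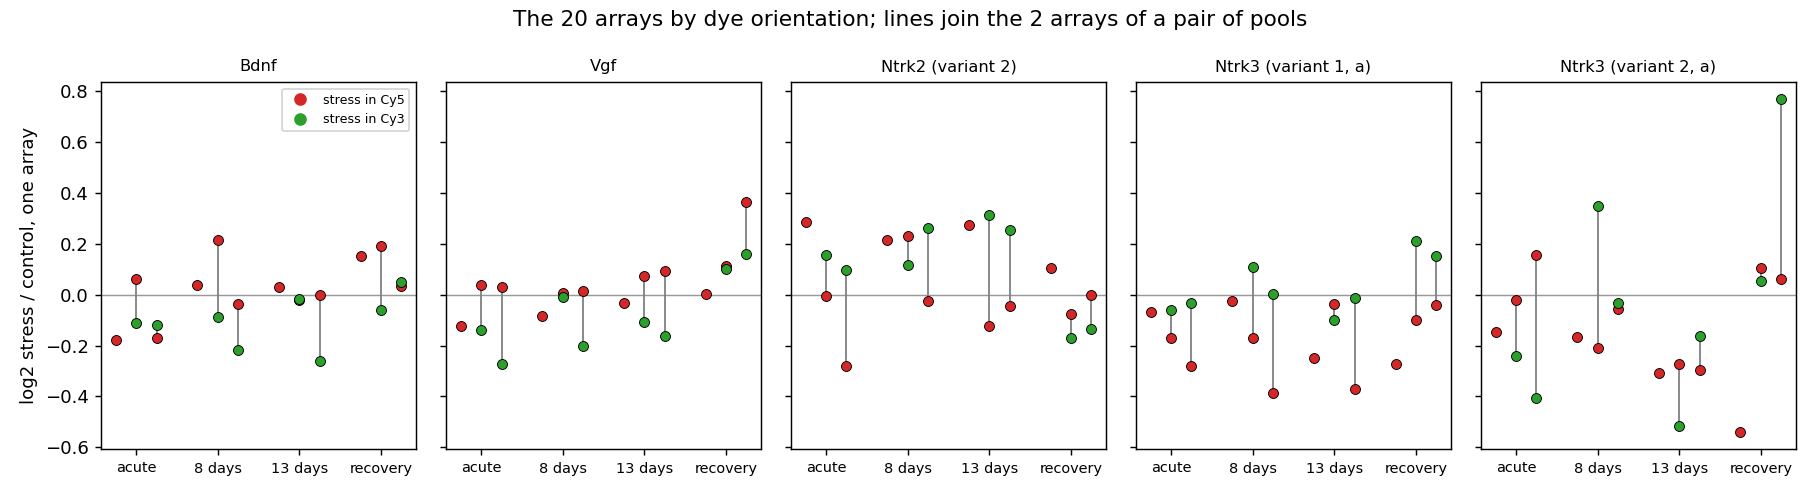
Stress over control as a log2 ratio on each of the 20 arrays (vertical axis) by time point (horizontal axis) for Bdnf, Vgf, truncated Ntrk2 and both forms of Ntrk3, coloured by the dye of the stress pool, with lines joining the 2 arrays of a pair. The truncated Ntrk3 probe is below 0 on all 5 arrays at 13 days, while the truncated Ntrk2 probe has arrays on both sides of 0 at that time.

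Ngfr, the low-affinity receptor p75, was measured by A_52_P236448 (chr11:95430211-95430270, mm9, minus strand) in 10 spots. Its log2 ratios were the closest to 0 of the members: 0.12, 0.0037 and -0.034 after acute stress, 0.025, 0.033 and 0.026 at 8 days, -0.014, 0.0037 and 0.021 at 13 days, and -0.021, -0.028 and 0.015 after recovery. The intervals lay between -0.091 and 0.11 over the 4 time points. The 3 pairs were above 0 at 8 days only, with an estimate of 0.028 (SE 0.037). The probe is one of the weaker signals on these arrays, where the background correction draws ratios to 0. With the local background subtracted, its estimates moved by 0.025 at most, to 0.053 at 8 days. That setting keeps the offset of 50, so it cannot show what the offset itself draws to 0. Over 20 alternatives the 8-day estimate ran from 0.025 to 0.12. Over its 10 spots on an array the SD of the log2 ratio was 0.00052 to 0.12, median 0.077.

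Sort1 encodes sortilin, a sorting receptor that binds proneurotrophins and directs BDNF to the regulated secretory pathway. The brightest of its 3 probes, A_52_P590396 (chr3:108164349-108164408, mm9, plus strand), gave 0.058, 0.013 and 0.099 after acute stress, above 0 in 3 of 3, with an estimate of 0.056 (SE 0.048, adjusted p = 0.977). The pairs were at 0.07, 0.032 and -0.12 at 8 days, -0.028, 0.029 and -0.14 at 13 days, and 0.13, -0.029 and 0.067 after recovery. On 7 of 8 pairs the 2 arrays had opposite signs, with the original minus the swap array, divided by 2, at 0.16 ± 0.046 (SD), larger than any of its estimates.

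Of the other Sort1 probes, A_51_P517145 spans an exon junction (chr3:108157150-108159198). It is shown because it is the 1 member probe that a spliced transcript alone can match over its whole length.
Sort1 exon junction, A_51_P517145: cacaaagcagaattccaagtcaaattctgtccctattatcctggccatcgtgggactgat
Its estimates were between -0.058 and 0.0084. A_55_P2076683 (chr3:108158404-108158463), designed on an Ensembl transcript model, was between -0.086 and 0.016. It lies within the stretch spliced out between the ends of the exon junction probe, so it reads a transcript form that the exon junction probe does not match over its length. The ratios of these probes had r of 0.56 with each other over the 12 pairs, but the exon junction probe had -0.41 and the other -0.15 with the brightest probe.

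Vgf encodes a secreted peptide precursor of dense core granules that is induced by neurotrophins. Its probe A_55_P2085060 (chr5:137509153-137509212, mm9, plus strand) was below 0 in 9 of 9 pairs of the acute, 8 days and 13 days groups. The pairs were at -0.12, -0.05 and -0.12 after acute stress, -0.085, -0.0018 and -0.092 at 8 days, and -0.031, -0.016 and -0.036 at 13 days. After recovery it was at 0.0011, 0.11 and 0.26, so that pair 1 was close to 0 and pairs 2 and 3 stood above their controls. The estimates were -0.098, -0.06, -0.028 and 0.12 (SE 0.046), of which the last had an unadjusted p of 0.018 and an adjusted p of 0.999. Without pair 3 of that time point it was 0.054. With the local background subtracted, pair 2 at 8 days stood at 0.013 and pair 1 after recovery at -0.00066, so that neither the 9 of 9 below 0 nor the 3 of 3 above 0 held. The acute estimate turned to 0.10 when arrays were centred on the median in place of loess. In 6 of 8 pairs the 2 arrays disagreed in sign, and arrays with stress in Cy5 gave higher values in every pair, by 0.0069 to 0.15 as the difference divided by 2.

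As a level, Vgf averaged 14.39 ± 0.16 on the log2 intensity scale in stressed mice after recovery and 14.26 ± 0.24 in their controls. It averaged 14.04 ± 0.19 in acutely stressed mice and 14.13 ± 0.16 in the acute controls. The highest and lowest of the 8 means lay 0.35 apart, and no step between neighbouring means exceeded the pooled SD of the neighbours. Over all 14 probes, 1 of 98 such steps did, the one of Bdnf given above. In level, stress and control pools overlapped at all 4 time points for each of the 14 probes. This spread includes differences between pairs that a stress pool shares with its control pool and that the ratio within a pair takes out. By it, the order of the conditions within a probe was not resolved. The shares of such steps and of such overlap over all probes were not counted, so neither count can be read as particular to the members.

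**Figure D4:**
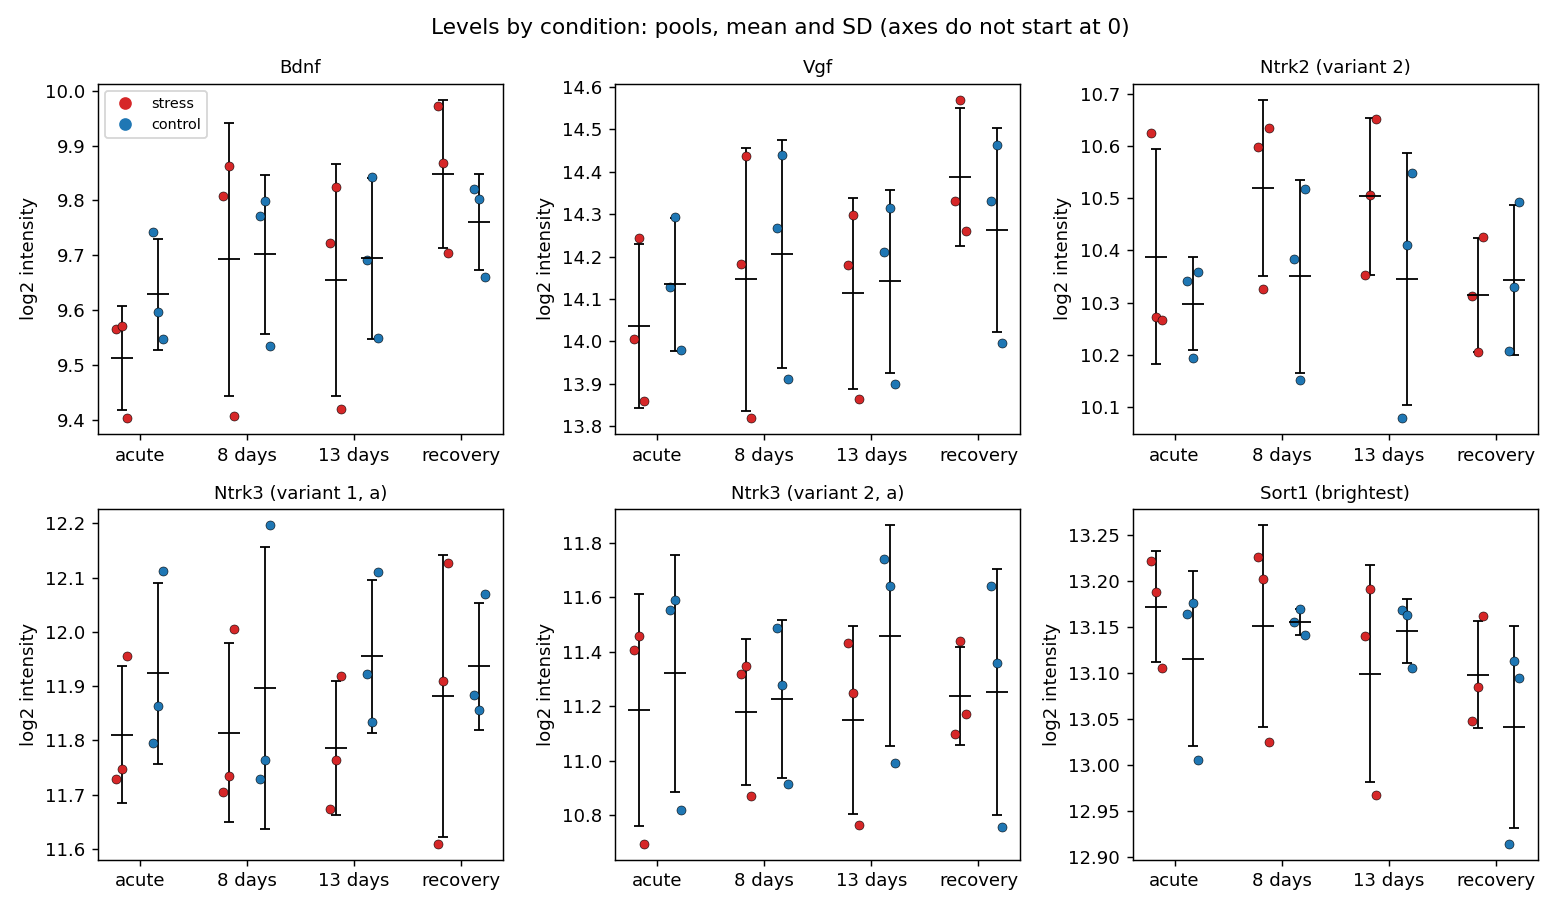
Log2 intensity (vertical axis, not starting at 0) of 6 member probes by time point (horizontal axis) in stress pools (red, left) and control pools (blue, right), as 3 pools with their mean and SD. The pools of stressed and control mice overlap for all 6 probes at each of the 4 time points.

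Between time points, the contrasts of the same fit asked whether the answer to stress differed with its length. For 8 days minus acute, 13 days minus acute and recovery minus 13 days, 0 of 14 members were called, against 0%, 0.00254% and 0% of all probes. A moderated F-test of any difference among time points called 0 of 14 at an adjusted p under 0.05, and 0% of all probes. Vgf had the lowest unadjusted p of that F-test, 0.023, as the 1 member under 0.05, against 2.72% of all probes. Its recovery minus 13 days difference was 0.15 (95% interval 0.012 to 0.29, unadjusted p = 0.036, adjusted p = 0.995). The truncated TrkC probe had the largest of these differences, 0.29 for recovery minus 13 days, with an interval up to 0.66.

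Averaged over the 4 time points, a contrast added after the data were seen, 0 of 14 members were called, against 0.0127% of all probes. The full-length TrkC probe A_66_P118329 had a mean of -0.10 (SE 0.031, 95% interval -0.17 to -0.038, unadjusted p = 0.00502, adjusted p = 0.443) and was below 0 in 10 of 12 pairs. Truncated TrkB had a mean of 0.097 (SE 0.032, interval 0.027 to 0.17, unadjusted p = 0.0103, adjusted p = 0.502) and was above 0 in 9 of 12. These 2 of 14 members were under an unadjusted p of 0.05, as were 7.48% of all probes. In the data used here pair 1 of each time point had stress in Cy5 only, so a dye difference is not averaged out in these means. Bdnf averaged -0.019 (SE 0.024), with 6 pairs above and 6 below 0.

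For the brightest probe of each member, the probes of other genes most like it over the 12 pairs were taken from up to 19007 that were well above background on every array. Bdnf was closest to Grasp (r = 0.88), Rab3gap2 and Slc35b3, and Vgf to Homer1 (r = 0.84), a synaptic scaffold gene, Airn and Scube1. Ntf3 was closest to Myst4 (r = 0.91), Ngfr to Ccdc71 (r = 0.95), the Ntrk2 probe for both forms to Mtap1a (r = 0.96), Ntrk3 to Atxn2l (r = 0.90) and Sort1 to Atf2 (r = 0.94). The pairs share slides and dyes, and each of these is the top of a search over many probes. Among the members, Bdnf and Vgf had r = 0.55 over the 12 pairs and 0.005 after the mean of each time point was taken out.

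The wider pathway was read from 9 lists with 102 genes, using the brightest probe per gene. At each time point 0 of the 102 genes were called. At an unadjusted p under 0.05 there were 8 after acute stress, 4 at 8 days, 11 at 13 days and 1 after recovery, which is 7.84%, 3.92%, 10.8% and 0.98% of the genes, against 4.94%, 2.39%, 7.18% and 3.56% of all probes. List medians over all 9 lists and 4 time points ran from -0.084 to 0.072, both of them in the sortilin family of 4 genes.

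In the list of other ligands and receptors, the lowest unadjusted p was that of Ntf5, 0.20. In the sortilin family it was that of Sorcs3 after acute stress, with pairs at -0.15, -0.034 and -0.32 (unadjusted p = 0.012, adjusted p = 0.904). Of the 13 genes for proneurotrophin cleavage, Serpini1, a brain inhibitor of tissue plasminogen activator, was above 0 in 3 of 3 pairs at 13 days, at 0.094, 0.17 and 0.092 (adjusted p = 0.628). By lowest unadjusted p, Rapgef1 came first of the 24 Trk adaptors and effectors, with an estimate of -0.099 at 13 days. By the same rule Lingo1 came first of the 9 partners of Ngfr, with -0.15 after acute stress. Ret did so in the 9 genes of the GDNF family, with 0.12 after acute stress. Estimates larger in size reached 0.14 after acute stress in the Trk list and -0.17 at 8 days in the GDNF list.

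In the dense core granule list, which holds cargo like Vgf, the granin Scg2 had pairs at -0.33, -0.13 and -0.38 at 8 days, with an estimate of -0.28 (SE 0.056). Its unadjusted p of 0.000209 was the lowest of all 9 lists, and its adjusted p was 1. Of the 10 genes of this list, 2 were under an unadjusted p of 0.05 at 8 days and 2 at 13 days, Scg2 and Chga each time and below 0, where 2.39% and 7.18% of all probes were. After acute stress there were 2 of the 10, Scg2 at -0.14 and Chgb at 0.13, and after recovery 1, Chgb at 0.13, where 4.94% and 3.56% of all probes were. In the list of activity-regulated genes, 4 of 17 were under 0.05 at 13 days, Fos, Arc, Nr4a1 and Dusp1, all above 0, where 7.18% of all probes were. After acute stress there were 2 of 17, Fosb at 0.11 and Nptx2 at -0.11, and at 8 days and after recovery 0. The immediate early gene Fos stood at 0.45, 0.32 and 0.27 at 13 days (estimate 0.35, SE 0.11, adjusted p = 0.508). Npas4, a neuronal activity factor known to bind Bdnf promoters, was at 0.29, 0.69 and 0.26 at 13 days (estimate 0.41, SE 0.16, adjusted p = 0.628). The Bdnf probe was at -0.04 (SE 0.049) at that time.

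**Figure D5:**
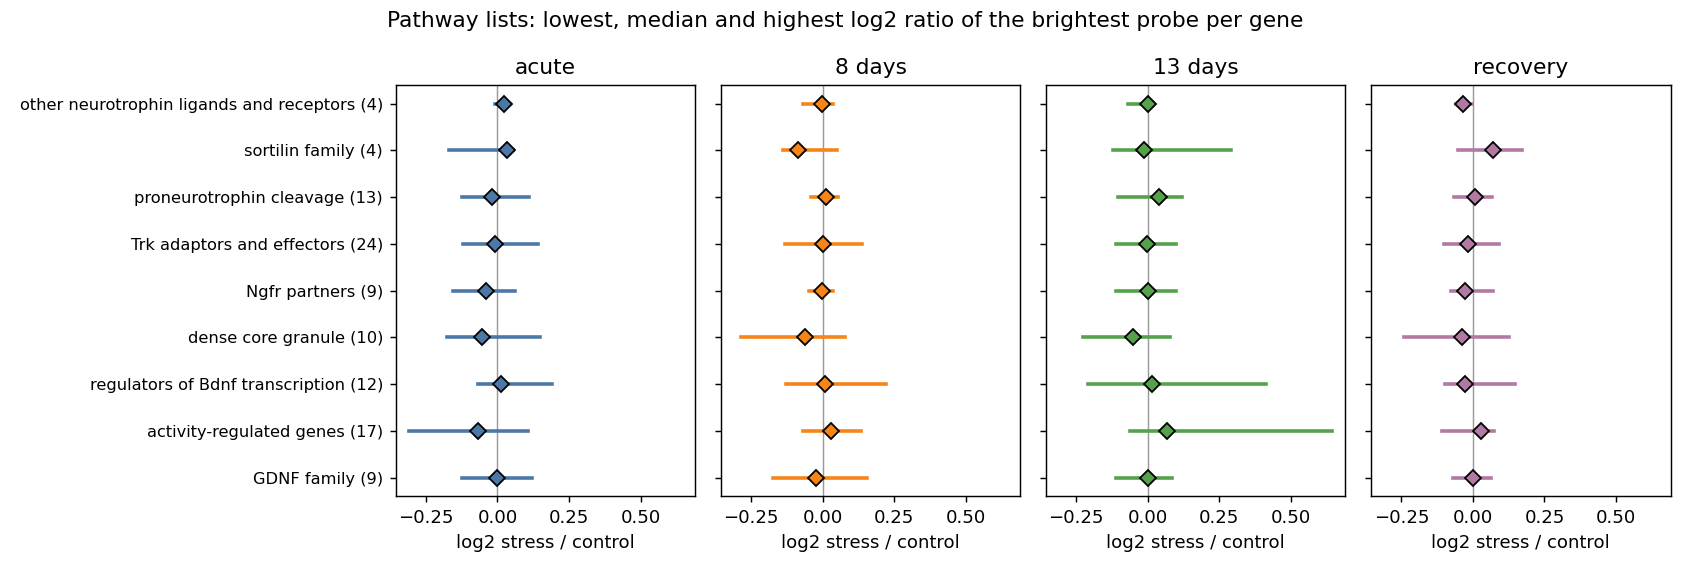
Log2 ratio of stress over control (horizontal axis) in 9 pathway lists (vertical axis, number of genes in brackets) in a panel per time point, as the median (diamond) and the lowest to highest gene (bar). The medians stay between -0.084 and 0.072, and the longest bars are those of the activity-regulated genes and the regulators of Bdnf transcription at 13 days.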

How the data were processed

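The authors scanned dual-colour Agilent 4x44K v2 mouse arrays and read them with Agilent Feature Extraction 10.10.1.1. The files as deposited give, for every spot, a mean and a median intensity and the local background, with no normalization, and a log10 ratio of Cy5 over Cy3 that the program had background-subtracted and dye-normalized. A value table by the authors holds log2 ratios that were already normalized. Against ratios made here with normexp and no offset, its 20 columns had r of 0.913 to 1, all positive, so its sign is stress over control on dye swaps too. Its column medians were -0.023 to 0.028, and the authors' methods name normexp, loess and Aquantile; an offset is not given in the sources used here.

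From the mean intensities, limma 3.58.1 (R 4.3.3) made log2 ratios by normexp (offset 50), loess in which outlier and control spots had no weight, and Aquantile. Outlier spots were then missing. The 43020 remaining spots were collapsed to 39429 probes, and ratios of swapped arrays changed sign before the mean per pair of pools was taken. One model over the 12 pairs had a coefficient per time point and moderated variances (4.86 prior degrees of freedom). Adjusted p values are Benjamini-Hochberg over all probes. The fit was tested on simulated data. An SE is that of this fit, and the number of arrays limits its precision. Each of 5 slides held 1 array of every time point. Positions are those of the array tables for mm9. An open reading frame over a probe's length does not by itself separate coding sequence from UTR, and UTR status was not looked up. Gene names are those of the array design.

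The members and gene lists were chosen with earlier results of these data known. All member probes are named with their values. The most alike genes are up to 3 by r for the brightest probe of each member, and from each pathway list a called gene, or else the one with the lowest unadjusted p, is named. Arc, Chga, Chgb, Dusp1, Fosb, Nptx2, Nr4a1 and the named marker genes were added after their values were seen. Alternatives varied the background, normalization, source of ratios, dye and slide terms, filters and the pairs used. Some genes of the lists are counted but not reported here by name.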

Additional observations from a re-analysis of the deposited data

Results flagged for a closer look

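For 3 of the 14 member probes, all 3 pairs of pools lay on 1 side of 0 at a time point and all 3 on the opposite side at another, as did 4632 of all probes (11.7%). Bdnf differed by 0.20 between recovery and acute stress (95% interval 0.054 to 0.35, limma's unadjusted p = 0.012, adjusted p = 1). Vgf differed by 0.22 for recovery minus acute (interval 0.082 to 0.36, unadjusted p = 0.0045, adjusted p = 0.972), by 0.18 for recovery minus 8 days (adjusted p = 1) and by 0.15 for recovery minus 13 days (adjusted p = 0.995). One of its recovery pairs stood at 0.0011, barely on its side, and at -0.00066 with the local background subtracted. The probe for both Ntrk2 forms differed by -0.20 for 8 days minus acute (interval -0.41 to 0.0028, adjusted p = 1), and pair 3 at 8 days stood at 0.16 with the local background subtracted. The contrasts of recovery with acute stress and with 8 days were added after the data were seen. By their own tests, no difference of these was called.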

How the results depend on the processing

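The count of called member probes was 0 at every time point, in every contrast and in the F-test. It stayed 0 in all 228 recounts under 17 alternative settings and with each of the 12 pairs left out in turn. Over all probes, 0 were also called at any time point under 4 of the settings. These were normexp without an offset, median centring, the authors' value table, and moderated variances with a trend and robust estimation. The highest count over all probes in any setting was 15, at 13 days without pair 3 of that time. A count of 0 is thus not particular to the members or to the pathway lists. The lowest adjusted p of a member was 0.18 at a single time point, for truncated Ntrk2 at 13 days with the replicate block. Pair numbers were blocked in that fit. Same-numbered pairs of different time points share slides, but the labels tie the numbers to no litter or day; same-numbered pairs of different time points had r between -0.12 and 0.51 in their deviations, and 9 of 12 correlated best with their own number. Under the replicate block 0 member probes were called. The pathway list genes called stayed 0 under every setting, with every probe in place of the brightest too. Of 1120 recomputed single ratios, 93 changed sign and 96 moved by more than their SE, with median centring in place of loess at 16 and 27 of 56 and pairs 2 and 3 only at 12 and 18 of 56. Without pair 1 of the time point 7 of 14 moved so after acute stress and 7 of 14 after recovery, and without pair 3 at 13 days 6 of 14 changed sign. Of the 7 ratios under an unadjusted p of 0.05, 1 changed sign, Bdnf after acute stress, under median centring. Leaving out 1 pair of the time point concerned took each of the 7 above 0.05, with Bdnf after acute stress at -0.16 to -0.085, the probe for both Ntrk2 forms after acute stress at 0.063 to 0.21, truncated Ntrk2 at 0.15 to 0.20 (8 days) and 0.10 to 0.19 (13 days), full-length Ntrk3 at -0.22 to -0.13, truncated Ntrk3 at -0.35 to -0.27, and Vgf after recovery at 0.054 to 0.19. The background correction drew ratios towards 0 on 5 arrays, more often of dim than of bright probes, which limits what these arrays can show.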
